A study of Mus musculus with 4 samples.

Results

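The 10 genes described here regulate or mark naive and resting T cells. They are the transcription factor genes Tcf7, Lef1, Foxo1, Foxp1, Satb1 and Bach2, the gene of the inhibitor of DNA binding Id3, and Igfbp4, Dapl1 and Actn1, whose transcripts are abundant in T cells that have not met antigen. They were chosen by symbol, and all 10 were found among the 20837 genes of the deposited count table. All 10 also passed the filter on low counts, which left 13861 genes for testing.

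The RNA came from splenic regulatory T cells of mice (Treg cells, a Foxp3-expressing CD4 lineage that restrains immune responses). The 2 libraries labelled cKO carry the genotype Foxp3YFP-CreKmt2dfl/fl, in which a Cre recombinase made under control of Foxp3 deletes a loxP-flanked Kmt2d, the gene of a histone H3 lysine 4 methyltransferase. The 2 libraries labelled WT carry the genotype Foxp3YFP-CreKmt2d+/+, so that the Cre and its YFP reporter are shared by both groups. The labels give neither age nor sex of these mice, and do not say whether animals were pooled or whether each library is a different mouse. The spread behind the p-values is therefore that between libraries, and it may be technical. The extraction text in the labels describes cultured macrophages of another knockout, and the groups here follow the tissue, cell type and genotype fields.

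A naive or resting T cell holds its state through a small set of transcription factors. TCF1 (encoded by Tcf7) and LEF1 bind the same DNA element and act with beta-catenin or with TLE corepressors, FOXO1 drives genes of survival and quiescence until the kinase AKT sends it out of the nucleus, and BACH2 holds back genes of effector cells. SATB1 organises chromatin loops in T cells, FOXP1 keeps naive T cells quiescent, and ID3 blocks the DNA binding of E proteins. In Treg cells the same factors are highest in the resting or central population of lymphoid organs and lower in effector Treg cells.

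Total counts were 28442416 and 34225385 in the cKO libraries and 35560491 and 30737750 in the WT libraries. Levels are given as CPM, read counts scaled to library size with TMM factors, in which 1 read was worth 0.0288 to 0.0344 CPM. Kmt2d itself measured 836 and 793 CPM in cKO and 721 and 704 CPM in WT, with edgeR's quasi-likelihood test giving a log2 fold change of 0.19 ± 0.05 (SE) and an adjusted p of 0.0375. That call ended when any 1 library was left out (edgeR adjusted p 0.0951 to 0.237). A whole-gene count may come mostly from exons that the deletion leaves in place, so it does not check the labels. The Treg factor Foxp3 measured 170 and 180 CPM in cKO and 278 and 250 CPM in WT. Of 4 Treg genes, Foxp3 fell, Il2ra rose and 2 did not pass. Pan T cell transcripts, a list of 10 genes that here includes Cd4, summed to 3948 and 4270 CPM in cKO and 5023 and 4837 CPM in WT. Of these 10, 6 fell, Cd4 among them, and 0 rose. All 9 neutrophil markers rose, with sums of 467 and 981 CPM in cKO against 47.3 and 143 CPM in WT, and so did all 5 basophil and mast cell markers, with sums of 15.5 and 29.8 CPM against 0.547 and 2.49 CPM. All 8 proliferation genes rose, with sums of 998 and 896 CPM in cKO and 437 and 532 CPM in WT. Markers of CD8 T and NK cells (7 of 8 rose) summed to 219 and 233 CPM in cKO and 148 and 170 CPM in WT. B cell markers (2 of 7 rose) summed to 149 and 253 CPM in cKO against 109 and 135 CPM in WT, and dendritic cell markers (5 of 7 rose) to 153 and 147 CPM against 78.5 and 88.2 CPM. Macrophage markers (1 of 8 fell) summed to 380 and 259 CPM in cKO and 317 and 493 CPM in WT, and erythroid and platelet markers (1 of 6 tested rose) to 154 and 413 CPM in cKO and 533 and 198 CPM in WT. None of these markers was at 0 in a library except Pf4, at 0 in cKO 2, and the part that other cells play in the results below was not tested.

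Of the 10 genes, 3 rose in cKO (Igfbp4, Foxp1 and Lef1), 3 fell (Id3, Tcf7 and Actn1) and 4 did not pass (Satb1, Bach2, Foxo1 and Dapl1), at an adjusted p under 0.05 in edgeR's quasi-likelihood test over all genes. Among all genes tested, 31.6% were called, 16.5% higher and 15.1% lower. The median log2 fold change of the 10 was 0.03, beside 0.0003 over all genes tested, and their median absolute log2 fold change was 0.24, beside 0.19. With 1 library left out, log2 fold changes were 0.81 to 0.88 (Igfbp4), 0.24 to 0.33 (Foxp1) and 0.13 to 0.20 (Lef1). Those of the genes that fell were -0.73 to -0.48 (Id3), -0.66 to -0.50 (Tcf7) and -0.50 to -0.45 (Actn1). The calls of Lef1 and Foxp1 depended on single libraries, as given below. None of the 10 reached a 2-fold change. In 8 of the 10 the cKO libraries did not overlap the WT libraries, while 66.0% of all genes tested were separated in this way. Of these 8, cKO was higher in 4 (35.1% of all genes) and lower in 4 (30.9%). In bulk RNA a lower share of cells that express a gene and less of its RNA per cell cannot be told apart.

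The start regions of the genes whose calls held in every alternative run, Igfbp4, Tcf7, Id3 and Actn1, are shown because they are the members that moved most, together with 1 internal start of Lef1 that carries the element read by LEF1 and TCF1. Each window is the RefSeq sequence of build GRCm38.p6 from 250 bases before to 50 bases after an annotated start, written 5′ to 3′ on the strand of the gene. Capitals mark CTTTGA (the core bound by TCF and LEF factors) and TGTTTAC (a forkhead element), on either strand, so that TCAAAG and GTAAACA are the same elements read on the other strand. The windows lie at chr11:99040994-99041293 (plus strand) for Igfbp4, chr11:52282546-52282845 (minus strand) for the second start of Tcf7, chr4:136143572-136143871 (plus strand) for Id3, chr12:80260314-80260613 (minus strand) for Actn1 and chr3:131156044-131156343 (plus strand) for the fourth start of Lef1.
Igfbp4: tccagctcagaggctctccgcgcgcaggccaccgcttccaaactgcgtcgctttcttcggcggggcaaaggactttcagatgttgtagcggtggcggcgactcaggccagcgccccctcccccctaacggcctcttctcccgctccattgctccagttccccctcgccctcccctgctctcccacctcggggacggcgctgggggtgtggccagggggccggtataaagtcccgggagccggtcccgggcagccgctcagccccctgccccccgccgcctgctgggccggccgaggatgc
Tcf7: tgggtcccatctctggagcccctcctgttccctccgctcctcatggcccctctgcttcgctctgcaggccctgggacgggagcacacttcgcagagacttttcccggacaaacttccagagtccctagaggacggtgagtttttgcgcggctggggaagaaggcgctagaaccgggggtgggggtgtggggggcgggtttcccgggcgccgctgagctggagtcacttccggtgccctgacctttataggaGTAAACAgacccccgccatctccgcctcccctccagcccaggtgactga
Id3: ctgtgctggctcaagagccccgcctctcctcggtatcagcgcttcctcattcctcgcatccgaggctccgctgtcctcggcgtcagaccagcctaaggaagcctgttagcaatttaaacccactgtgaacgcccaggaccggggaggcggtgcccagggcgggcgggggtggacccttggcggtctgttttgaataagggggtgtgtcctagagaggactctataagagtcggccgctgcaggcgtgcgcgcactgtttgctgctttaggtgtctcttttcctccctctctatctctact
Actn1: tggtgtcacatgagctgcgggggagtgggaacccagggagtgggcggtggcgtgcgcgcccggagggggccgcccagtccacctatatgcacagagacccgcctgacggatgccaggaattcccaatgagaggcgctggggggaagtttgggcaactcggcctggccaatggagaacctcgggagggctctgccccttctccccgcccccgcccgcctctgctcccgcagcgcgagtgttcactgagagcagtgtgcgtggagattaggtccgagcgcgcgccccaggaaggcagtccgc
Lef1: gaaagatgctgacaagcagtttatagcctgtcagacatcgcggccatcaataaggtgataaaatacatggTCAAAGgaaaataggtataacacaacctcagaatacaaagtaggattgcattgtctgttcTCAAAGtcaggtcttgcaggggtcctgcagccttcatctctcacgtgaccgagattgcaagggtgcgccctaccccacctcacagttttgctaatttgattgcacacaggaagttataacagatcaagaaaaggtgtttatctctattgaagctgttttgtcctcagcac

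The Lef1 window holds CTTTGA on its opposite strand at 180 and at 120 bases before the start. The second Tcf7 start has the forkhead element directly at the start, while the window of the first Tcf7 start, not shown, holds neither element. The Igfbp4, Id3 and Actn1 windows also hold neither. The windows also differ in base composition: the Igfbp4 start is 71.3% G and C with 27 CpG dinucleotides and the Actn1 start 68.3% with 24, whereas the internal Lef1 start is 43.7% with 5. Over all 20 windows of the 10 genes, CTTTGA was in 3 (1 each of Lef1, Bach2 and Foxp1) and TGTTTAC in 2 (1 each of Tcf7 and Dapl1). The 3 windows with CTTTGA are all at starts inside their genes. Bach2 had only this internal window (chr4:32417185-32417484), so the region at its outer end was not searched. The only Igfbp4 window likewise lies inside its RefSeq gene, which begins at 99040005. No window of Tcf7 or Foxp1 reached the outer end of its RefSeq gene (52283383 and 99522746). The outer ends of these genes were therefore not searched either. Among 32851 windows of all genes 16.0% hold CTTTGA and 3.65% hold TGTTTAC. E boxes (CANNTG, the element of the E proteins that ID3 blocks) were in 17 of the 20 windows, beside 72.3% of all, and the AP-1 element TGANTCA was in 0 of 20, beside 7.81% of all. A match describes these letters only.

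The HMG-box pair Tcf7 and Lef1 moved apart. Tcf7 (gene number 21414, mm10 chromosome 11, 52246527 to 52283383), which encodes TCF1, measured 634 and 710 CPM in cKO and 1031 and 971 CPM in WT. Both cKO libraries were below both WT libraries, by more than the libraries of a group differed. Tcf7 fell by 0.57 (log2 scale, SE 0.07; edgeR quasi-likelihood adjusted p = 0.00541). Lef1 (gene number 16842, chromosome 3, 131110297 to 131224357), its closest relative in T cells, measured 266 and 280 CPM in cKO and 243 and 241 CPM in WT. The WT libraries were nearly equal and both cKO libraries lay just above them. This rise of Lef1 was small, with a log2 fold change of 0.17 (SE 0.05, 95% interval 0.05 to 0.30, edgeR adjusted p = 0.0469). Its call ended with RLE scaling (edgeR adjusted p = 0.0741), with no filter on low counts (0.0550) and without cKO 1 (0.118), cKO 2 (0.280), WT 1 (0.146) or WT 2 (0.162), whereas that of Tcf7 held in each of these fits.

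**Figure D1:**
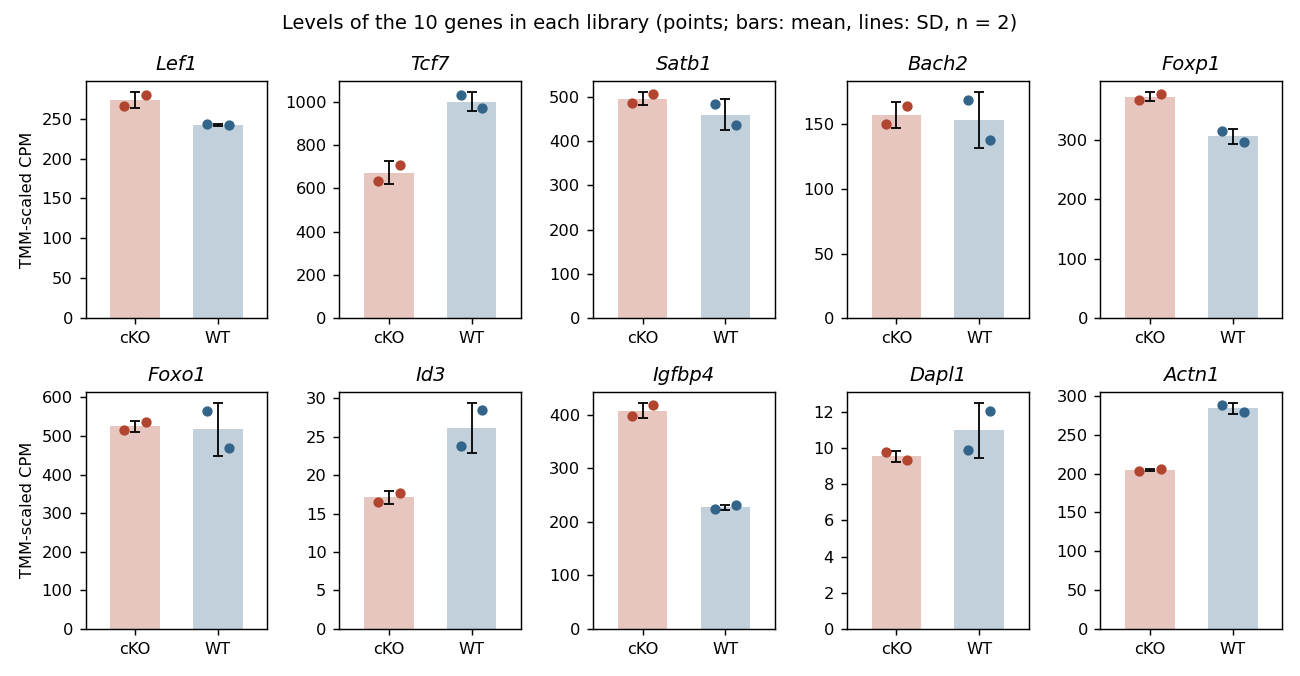
TMM-scaled CPM of the 10 genes in the cKO and WT libraries, with a linear axis from 0 for each gene, points for libraries, bars for means and lines for SD (n = 2 per group). Tcf7, Id3 and Actn1 lie lower and Igfbp4 higher in both cKO libraries than in both WT libraries, while Bach2 and Foxo1 overlap.

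Among the forkhead factors, Foxp1 rose slightly and Foxo1 did not pass. Foxp1 (gene number 108655, chromosome 6, 98925342 to 99522746) measured 367 and 377 CPM in cKO and 315 and 296 CPM in WT. The groups did not overlap, and the log2 fold change was 0.28 (SE 0.05, edgeR quasi-likelihood adjusted p = 0.0123). The call ended without cKO 1 (edgeR adjusted p = 0.0526), cKO 2 (0.0695) or WT 2 (0.0581) and held without WT 1 (0.0364). Foxo1 (gene number 56458, chromosome 3, 52268337 to 52350109) measured 516 and 536 CPM in cKO and 565 and 469 CPM in WT, so that both cKO libraries lay between the WT libraries. Its log2 fold change was 0.02 with a 95% interval of -0.21 to 0.25 (edgeR adjusted p = 0.901), and the sign turned without cKO 2 (-0.0076) or WT 2 (-0.11).

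The chromatin organiser Satb1 and the repressor gene Bach2 did not pass. Satb1 (gene number 20230, chromosome 17, 51736187 to 51833290) measured 486 and 506 CPM in cKO and 484 and 436 CPM in WT, with cKO 1 barely above WT 1. Its log2 fold change was 0.11, with a 95% interval of -0.05 to 0.27 (edgeR quasi-likelihood adjusted p = 0.271). Bach2 (gene number 12014, chromosome 4, 32238413 to 32586109) measured 150 and 165 CPM in cKO and 168 and 138 CPM in WT. The WT libraries enclosed the cKO libraries, and the log2 fold change of 0.04 had a 95% interval of -0.22 to 0.29 (edgeR adjusted p = 0.850). Its sign turned without cKO 2 (-0.03) or WT 2 (-0.10).

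Id3 (gene number 15903, chromosome 4, 136143822 to 136145392), whose product keeps E proteins off DNA, had the largest fall of the 10. It measured 16.5 and 17.7 CPM in cKO and 23.8 and 28.4 CPM in WT. The WT libraries differed by 1.19-fold and the cKO libraries by 1.07-fold, and the groups did not overlap. Id3 fell by 0.61 (log2 scale, SE 0.11; edgeR quasi-likelihood adjusted p = 0.0104), and leaving out 1 library moved this between -0.73 and -0.48 with the call held.

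The 3 marker genes without a known role in transcription went in different directions. Igfbp4 (gene number 16010, chromosome 11, 99040005 to 99052655), which encodes a secreted protein that binds insulin-like growth factors, measured 398 and 418 CPM in cKO and 223 and 231 CPM in WT. It had the largest change of the 10, a 1.80-fold rise (log2 fold change 0.85, SE 0.05, edgeR quasi-likelihood adjusted p = 0.00205), and lies at percentile 87.4 of absolute log2 fold changes over all genes tested. Actn1 (gene number 109711, chromosome 12, 80167542 to 80260420), which encodes the actin crosslinker alpha-actinin 1, measured 204 and 206 CPM in cKO and 289 and 279 CPM in WT. Libraries of a group were close together, and Actn1 fell by 0.47 (log2 scale, SE 0.05; edgeR adjusted p = 0.00412). Dapl1 (gene number 76747, chromosome 2, 59484653 to 59505020), a relative of the death-associated protein gene Dap, was the least abundant of the 10 by CPM, with 284 and 322 counts (9.76 and 9.33 CPM) in cKO and 344 and 367 counts (9.91 and 12.0 CPM) in WT. Both cKO libraries lay below the WT libraries, cKO 1 only just, and the log2 fold change of -0.20 did not pass (95% interval -0.51 to 0.11, edgeR adjusted p = 0.292).

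**Figure D2:**
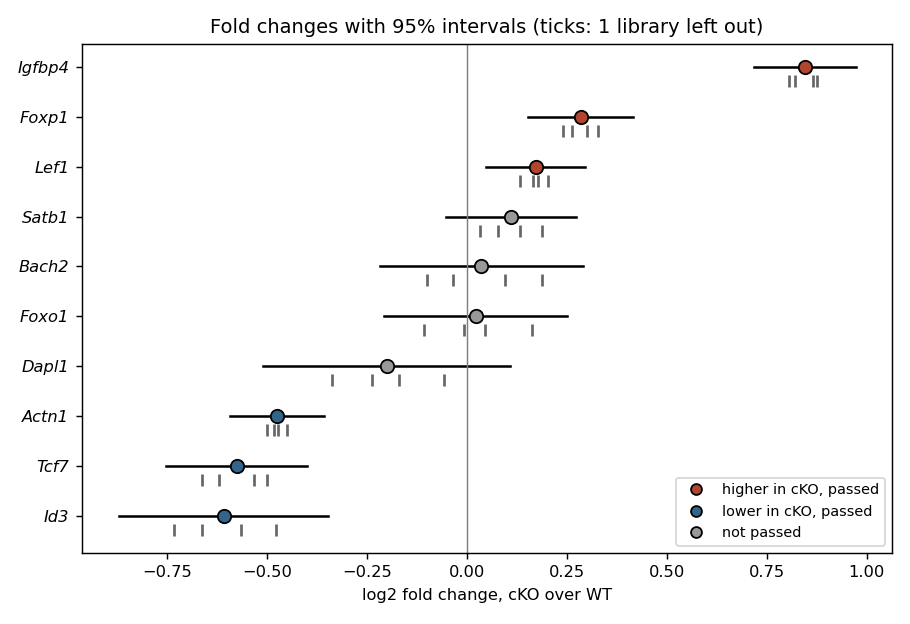
Log2 fold changes of the 10 genes, cKO over WT, with 95% intervals from the edgeR fit (lines), coloured by call, and the values with 1 library left out (ticks). The intervals of Igfbp4, Tcf7, Id3 and Actn1 lie far from 0, that of Lef1 begins at 0.05, and the ticks of Bach2 and Foxo1 fall on both sides of 0.

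Ratios of 2 genes within a library do not depend on how libraries are scaled. Per kilobase of annotated exon (GENCODE M21), Tcf7 was 7.97 and 8.49 times as abundant as Lef1 in cKO and 14.2 and 13.5 times in WT. This ratio was lower in both cKO libraries. The ratio of Igfbp4 to Actn1, the largest riser and a faller, was 2.45 and 2.55 in cKO and 0.969 and 1.03 in WT. The ratio of Foxp1 to Foxo1 was 0.449 and 0.444 in cKO and 0.351 and 0.398 in WT, also without overlap, while that of Satb1 to Bach2 overlapped, with 1.69 and 1.61 in cKO and 1.502 and 1.65 in WT. No test was run on these ratios. Those of Tcf7 to Lef1 and Igfbp4 to Actn1 had to separate the groups, since these genes moved in opposite directions without overlap.

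**Figure D3:**
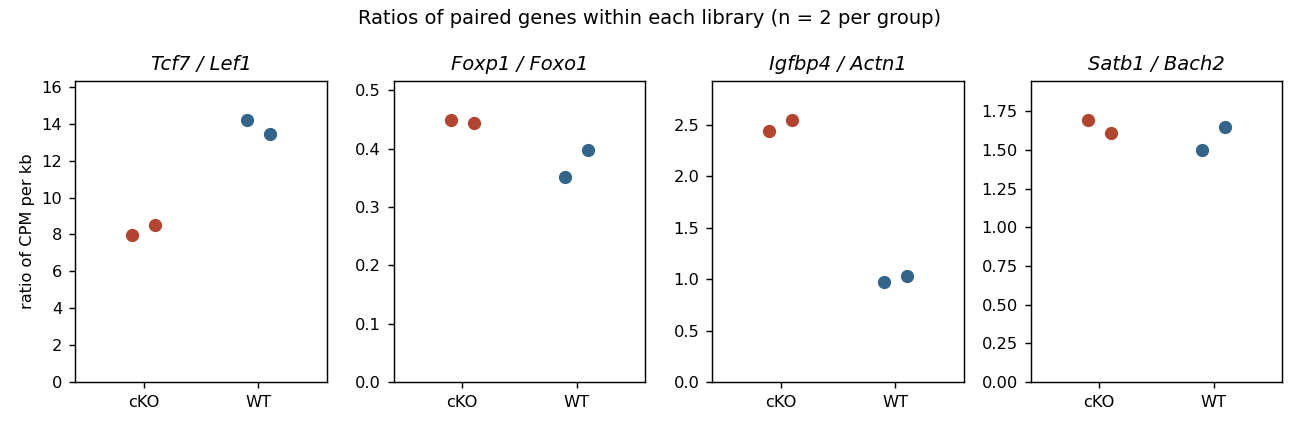
Ratios of CPM per kilobase for 4 gene pairs within each cKO and WT library, on linear axes from 0 (points: libraries, n = 2 per group). Tcf7 over Lef1 is near 8 in cKO and near 14 in WT, Igfbp4 over Actn1 is above 2 in cKO and near 1 in WT, and Satb1 over Bach2 overlaps.

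Tcf7, Actn1 and Id3 were also lower in cKO relative to other T cell transcripts of the same library. Tcf7 amounted to 16.1% and 16.6% of the summed CPM of the 10 pan T cell genes in cKO and 20.5% and 20.1% in WT. Actn1 amounted to 5.16% and 4.81% in cKO and 5.75% and 5.78% in WT, a smaller gap than in CPM, and Id3 to 0.418% and 0.414% in cKO and 0.474% and 0.588% in WT. On this scale Lef1 was 6.74% and 6.56% in cKO and 4.84% and 4.99% in WT, and Foxp1 9.30% and 8.84% in cKO and 6.27% and 6.13% in WT. Foxo1 no longer overlapped, with 13.1% and 12.5% in cKO and 11.3% and 9.70% in WT, and neither did Bach2, with 3.80% and 3.85% in cKO and 3.35% and 2.86% in WT. Satb1 was 12.3% and 11.9% in cKO and 9.64% and 9.01% in WT, and Igfbp4 10.1% and 9.79% in cKO and 4.45% and 4.77% in WT. Dapl1 overlapped, at 0.247% and 0.218% in cKO and 0.197% and 0.249% in WT. Of the pan T cell genes, 6 fell, so that this scale moves every member up relative to TMM scaling.

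By CPM per kilobase, Tcf7 led in both groups by a wide margin, with 256 ± 20.6 in cKO and 381 ± 16.3 in WT (SD, n = 2 each). Igfbp4 came next in cKO (92.4 ± 3.21), where it was above Foxo1 (60.7 ± 1.63), whereas in WT Foxo1 (59.7 ± 7.86) was ahead of Igfbp4 (51.4 ± 1.16) and Actn1 (51.4 ± 1.22), which overlapped each other. Actn1 (37.0 ± 0.220), Lef1 (31.1 ± 1.12), Foxp1 (27.1 ± 0.523), Satb1 (26.1 ± 0.739), Bach2 (15.8 ± 1.02), Dapl1 (14.1 ± 0.457) and Id3 (9.55 ± 0.471) followed in cKO without overlap, though Foxp1 and Satb1 were almost level. In WT Lef1 (27.6 ± 0.145) was followed by Satb1 (24.2 ± 1.81) and Foxp1 (22.2 ± 0.949), which overlapped, and then by Dapl1 (16.2 ± 2.22), Bach2 (15.4 ± 2.16) and Id3 (14.6 ± 1.82), where neighbours overlapped. These lengths are unions of all annotated exons and may be longer than the transcripts that Treg cells use.

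Other genes of naive and resting T cells also went in both directions. Of 14 such genes in the test, 3 rose, 4 fell and 7 did not pass, with a median log2 fold change of -0.07 beside 0.0003 over all genes. Among all genes tested, 16.5% rose and 15.1% fell, the background for this count and for the list counts that follow. Txnip, an inhibitor of glucose uptake, measured 980 and 900 CPM in cKO and 517 and 582 CPM in WT and rose by 0.78 on the log2 scale (SE 0.08). The survival gene Bcl2 rose by 0.59 (SE 0.05). Il6ra, a chain of the interleukin 6 receptor, fell by 0.68 (SE 0.08). Ly6c1 belongs to a multigene family with near-identical copies, so its log2 fold change of -1.30 (SE 0.11) is uncertain. The remaining falls were those of the costimulatory receptor gene Cd27 (-0.33) and of Treml2 (-0.18). Only 2 of the 14 fell without cKO 1 or without WT 1, where the calls of Cd27 and Treml2 ended.

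Among partners of TCF1 and LEF1 and genes of the Wnt pathway, 2 of 16 in the test rose, 7 fell and 7 did not pass (median log2 fold change -0.19). Axin2, a negative regulator of Wnt signalling that is itself a classic target of TCF and LEF factors, measured 22.2 and 28.4 CPM in cKO and 63.6 and 55.5 CPM in WT. Both cKO libraries were well below both WT libraries, and Axin2 fell by 1.23 on the log2 scale (SE 0.13; edgeR quasi-likelihood adjusted p = 0.00435). The beta-catenin coactivator gene Bcl9l fell by 0.75 (SE 0.07), and the TLE corepressor gene Tle3 by 0.34 (SE 0.05). Ctnnbip1, whose product keeps beta-catenin from TCF factors, was scarce and rose by 1.39 (SE 0.21), with 3.92 and 3.27 CPM in cKO and 1.24 and 1.51 CPM in WT. The count of falls depended on single libraries: 3 genes fell without cKO 1 or WT 1, and 4 without cKO 2. The calls of Tle5, Apc, Axin1, Gsk3b and the TCF relative Tcf7l2 were among those lost.

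Of 10 genes in the test for the FOXO family and its kinases, 1 rose, 5 fell and 4 did not pass (median log2 fold change -0.17). The relatives Foxo3 and Foxo4 fell by 0.31 and 0.30, and the kinase genes Akt2, Sgk1 and Pdpk1 by 0.31, 0.34 and 0.20, while Pik3ip1, an inhibitor of PI3 kinase, rose by 0.23. All of these changes were small, and each of the 6 calls ended with at least 1 library left out. Without cKO 1 or WT 1, 1 of the 5 falls was still called, and without cKO 2, 2 were. Of 12 known FOXO1 targets, 1 rose, 4 fell and 7 did not pass, with a median of -0.15. Irs2, the insulin receptor substrate gene, measured 60.0 and 81.6 CPM in cKO and 174 and 150 CPM in WT and fell by 1.19 (SE 0.15). The follicular regulator gene Bcl6 fell by 0.52 and the stress response genes Sesn3 and Sesn1 by 0.37 and 0.21, of which the Sesn1 call ended with any 1 library left out. In the FOXP family Foxp3 and Foxp4 fell, by 0.59 and 0.42, where Foxp1 rose, and Foxp2 was too low to test.

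**Figure D4:**
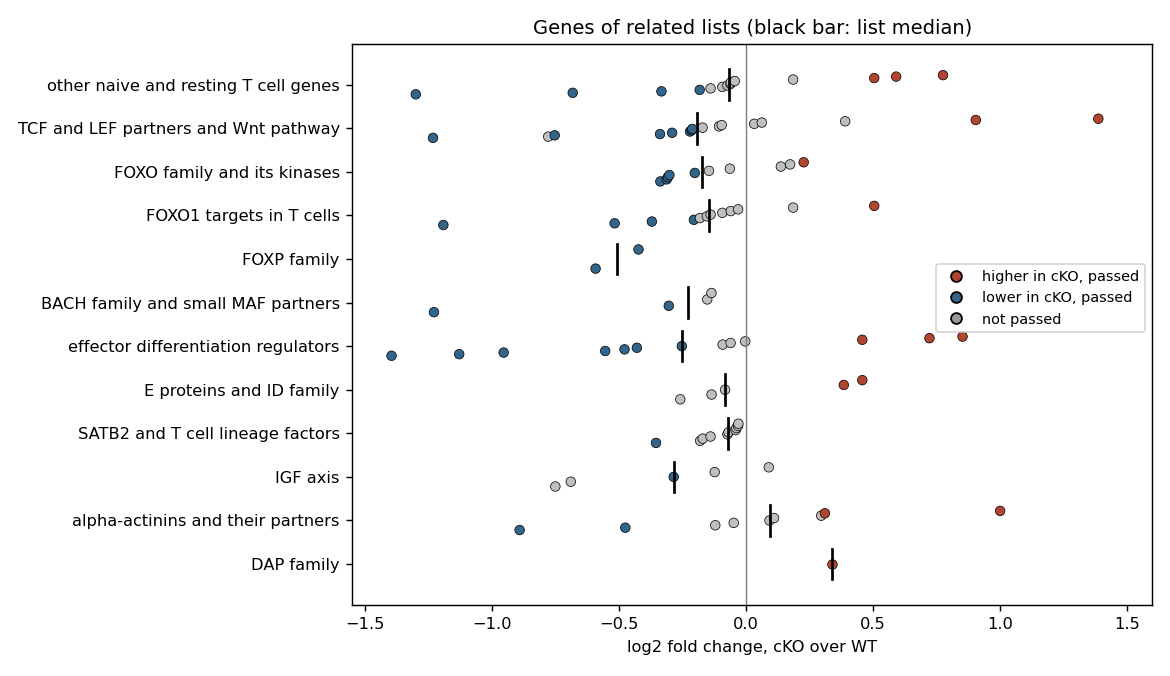
Log2 fold changes, cKO over WT, of the tested genes in 12 lists related to the 10 genes, each point a gene coloured by call, with the list median as a black bar. Most list medians lie between -0.28 and 0.09, and single genes such as Axin2 (-1.23), Irs2 (-1.19), Maff (-1.23) and Ctnnbip1 (1.39) stand well away from their list.

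Of 13 regulators of effector differentiation, 3 rose, 7 fell and 3 did not pass (median log2 fold change -0.25). Prdm1, the Blimp-1 gene that BACH2 represses, measured 45.9 and 44.6 CPM in cKO and 22.8 and 27.4 CPM in WT and rose by 0.85 (SE 0.09; edgeR quasi-likelihood adjusted p = 0.00471). Zeb2, a repressor gene of terminal effector cells, rose by 0.72. Id2, the counterpart of Id3, measured 165 and 163 CPM in cKO and 112 and 127 CPM in WT and rose by 0.46 (SE 0.07), while Id3 fell. The transcription factor gene Bhlhe40 measured 192 and 278 CPM in cKO and 666 and 572 CPM in WT, a log2 fold change of -1.40, and Nfil3 and Rora fell by 1.13 and 0.95. Of 4 genes for BACH1 and the small MAF partners of BACH factors, Maff fell by 1.23 and Mafg by 0.30, and Bach1 (-0.15) and Mafk did not pass. The Mafg call ended without cKO 1 (edgeR adjusted p = 0.0909) or WT 1 (0.0872).

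Among 5 genes of E proteins and ID factors in the test, Id2 and Tcf4 rose, by 0.46 and 0.38, and 3 did not pass, among them the E protein gene Tcf3 (-0.08). Tcf4 is also abundant in plasmacytoid dendritic cells, whose marker Siglech measured 20.4 and 19.5 CPM in cKO and 4.90 and 5.68 CPM in WT. The part of those cells in the Tcf4 rise was not tested, and the Tcf4 call ended without cKO 2 (edgeR adjusted p = 0.131), WT 1 (0.118) or WT 2 (0.0576). In the list of T cell lineage and chromatin factors that accompany SATB1, Runx1 fell by 0.35 (SE 0.06), 0 of 10 rose and 9 did not pass. Among these 9, the chromatin insulator gene Ctcf measured 265 and 256 CPM in cKO and 291 and 284 CPM in WT.

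In the insulin-like growth factor axis, beside the rise of Igfbp4, the scavenging receptor gene Igf2r fell by 0.28 and the other 4 genes in the test did not pass. The Igf2r call ended without cKO 2 (edgeR adjusted p = 0.0524) or WT 1 (0.0538). Among those 4, the ligand gene Igf1 measured 5.47 and 3.45 CPM in cKO and 6.83 and 8.11 CPM in WT. Its log2 fold change of -0.75 (SE 0.24; edgeR adjusted p = 0.0596) passed without cKO 1 (-1.12; 0.0195), with no filter on low counts (0.00271) and in limma-voom (0.0453). It did not pass without cKO 2 (0.179), WT 1 (0.110) or WT 2 (0.205), as edgeR adjusted p. Other binding protein genes were scarce: Igfbp2, Igfbp3, Igfbp5 and Igfbp6 were too low to test, and Igfbp7 measured 0.722 and 0.782 CPM in cKO and 1.07 and 1.38 CPM in WT. Of 9 genes of alpha-actinins and their partners, Vcl (vinculin) and Zyx (zyxin) rose, by 1.00 and 0.31, Pdlim1 and the muscle paralogue Actn2 fell, by 0.48 and 0.89, and 5 did not pass. The Zyx call ended without cKO 1 (edgeR adjusted p = 0.0633) or WT 1 (0.0599), and the Actn2 call with any 1 library left out (0.0784 to 0.0953). Dap rose by 0.34 where Dapl1 did not pass, a call that ended without cKO 2 (edgeR adjusted p = 0.0569) or WT 1 (0.0565).

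The genes closest in pattern to the members with the largest called changes were found over the 4 libraries, by the distance between centred log2 CPM values among 8757 other genes of at least 10 CPM. Nearest to Igfbp4 were Car12 (distance 0.036), Bbc3 (0.041) and Plscr3 (0.065), with log2 fold changes of 0.91, 0.86 and 0.89. Nearest to Id3 were Arrdc3 (0.095), Ypel3 (0.126) and Chn2 (0.135), with log2 fold changes of -0.65, -0.60 and -0.52. With 4 libraries a short distance says little more than that the fold changes are alike.

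Annotated genes on the opposite strand overlap exons of Lef1, Foxo1, Satb1, Bach2 and Actn1. Of these, Bach2os is in the deposited table, with 1 and 5 counts in the cKO libraries and 3 and 1 counts in the WT libraries, against 4367 and 5680 counts and 5848 and 4211 counts for Bach2. On the same strand, the annotated coding gene Gm20696 shares exons with Foxp1. Reads of such neighbours on the other strand cannot be told apart from those of the gene if strand was not used in counting.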

How the data were processed

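The data are RNA-seq libraries of splenic Treg cells, 2 labelled cKO and 2 labelled WT. The authors deposited whole-number read counts per gene, and the submitters' processing notes name the build mm10. Aligner, counter, annotation, kit and strand setting were not given in the sources used here. The 10 members and the gene lists were chosen with earlier results of these data known.

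Counts were filtered with filterByExpr (minimum count 10, minimum total 15), scaled by TMM and compared by edgeR 4.0.16 (R 4.3.3, glmQLFit and glmQLFTest, 2-sided, no covariate), and p-values of all 13861 genes were adjusted by Benjamini-Hochberg at a threshold of 0.05. SE is the absolute log2 fold change over the square root of F, and intervals are 95%. The test was also run on counts simulated from its own fitted model, with few genes changed. That setting differs from these data, so the run does not show how reliable the calls here are. Alternatives were DESeq2 1.42.0, voom (limma 3.58.1), scaling by RLE or upper quartile, no filter, 5 CPM in 2 libraries, a replicate block, each library left out and a threshold of 0.10; a block of crossed numbers was added after seeing the data. Named are the members, Kmt2d, up to 3 genes per list by p, others where counts are small, and the nearest patterns. Bhlhe40, Nfil3, Siglech, Tle3, Il6ra and Sesn3, and the genes named for lost calls, were picked after their values were seen. Values of 1 gene that the naming rule selects are not reported here.

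RefSeq GRCm38.p6 gave coordinates and start windows for all 10 members, matched by gene number. Exon lengths came from GENCODE M21. Libraries of a group differed by more than counting noise, so none was a plain copy of another. This does not tell whether they came from different mice or from repeat preparations of the same sample.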

Additional observations from a re-analysis of the deposited data

How the results depend on the processing

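The calls of Igfbp4, Tcf7, Id3 and Actn1 held, with the same sign, in all 13 alternatives run. Their log2 fold changes were 0.81 to 0.88, -0.66 to -0.50, -0.73 to -0.48 and -0.50 to -0.45. Among these 13, the threshold of 0.10 is the main fit at a looser cutoff, where no call can be lost. The block of crossed numbers among them was chosen after seeing the data. Lef1 lost its call in 8 of 13 and Foxp1 in 4 of 13, and neither changed sign. DESeq2 called 2 of the 10 higher, without Lef1 (DESeq2 adjusted p = 0.121), and 3 lower. No called member changed sign with 1 library left out. Over all genes, 4380 were called, 2876 by DESeq2 and 1869 to 2747 with 1 library left out. With 1 library left out, Bach2 ranged between -0.10 (without WT 2) and 0.19 (without WT 1), with -0.03 without cKO 2. Foxo1 ranged between -0.11 (without WT 2) and 0.16 (without WT 1), with -0.0076 without cKO 2. Neither passed in any fit. The cause of these changes was not tested, beyond the fewer samples.

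Same-numbered libraries deviated from their group means in opposite directions (correlation -0.32 over genes), and libraries of crossed numbers in the same direction (0.32). With 2 libraries a group these values mirror each other, so they cannot tell whether the numbers pair the samples. The labels state no pairing. With the replicate block 2292 genes were called, 1 of the 10 rose (Igfbp4) and 3 fell. A block of crossed numbers, chosen after seeing the data, called 6713 genes, with 4 of the 10 higher (Satb1 added) and 3 lower. Counts for the related lists moved by over 1.5 times, or to or from 0, in 58 of 312 recomputed values. Depth limits Dapl1 most, with 284 to 367 counts a library.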
